A study of Arabidopsis thaliana with 9 samples.

Results

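The plastid thiol peroxidases and the thioredoxins around them are described here by 10 nuclear genes of Arabidopsis thaliana, picked by locus code from the 33473 genes of the deposited table. They are 4 peroxiredoxins (2CPA, 2CPB, PRXQ and PRXIIE), the reductase NTRC, and 5 thioredoxins (TRX m1, TRX m2, TRX m4, TRX f1 and CDSP32). All 10 were found, and their levels across 3 exposures to high light were read. Shoots came from 21-day-old plants of the accession Col-0, raised at 23 °C under dim light, 50 µmol m-2 s-1, that was never switched off. Plants were exposed at 21 °C to 1000 µmol m-2 s-1 for 0 s (the control), 20 s or 60 s, and the pots were then frozen in liquid nitrogen. Each exposure had 3 pools of at least 30 plants per the labels, which makes 9 samples. The deposited table holds 1 FPKM value (sequenced fragments scaled by transcript length and library size) per gene and exposure. It gives no value of a single pool, so no SD, interval or test exists for any difference below, and higher and lower are words about the deposited numbers.

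Peroxiredoxins reduce hydrogen peroxide and organic peroxides with a reactive cysteine, which is oxidized in the reaction and must then be reduced again by a thiol donor. In chloroplasts that donor is commonly a thioredoxin, a small protein with a pair of redox-active cysteines, or NTRC, which joins an NADPH-dependent reductase and a thioredoxin domain in a single protein. Some peroxiredoxins use glutaredoxin. Most plastid thioredoxins take their electrons in the light from photosystem I by way of ferredoxin and ferredoxin-thioredoxin reductase, and they switch enzymes of carbon fixation on by reducing their disulfides. This control acts on proteins that are already present, and transcript levels do not measure it.

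The codons for the redox-active cysteines are shown because they define both families. A script searched the RefSeq coding sequence of each gene (assembly TAIR10.1). In the peroxiredoxins it looked for codons that read Pro-x-x-x-Thr-x-x-Cys, whose last residue is the cysteine that meets the peroxide. In NTRC and the thioredoxins it looked for codons that read Cys-Gly-Pro-Cys. Each of the 10 coding sequences held its motif at 1 place. The peroxiredoxin stretches are given here 5′ to 3′, with the codon of the reactive cysteine in capitals.
2CPA: ccattggactttactttcgtcTGCccaaca
2CPB: cctttggacttcacttttgtcTGCcccact
PRXQ: cctgcagatgaaacccctggcTGCaccaag
PRXIIE: cccggcgcattcacaccaacaTGCtcacaa
In the stretches of NTRC and the thioredoxins, the capitals mark the codons of the whole Cys-Gly-Pro-Cys motif.
NTRC: tcaccaacaTGTGGCCCCTGTaggactctg
TRX m1: gcaccatggTGTGGACCCTGCaaaatgatt
TRX m2: gcaccatggTGTGGACCTTGCaagatgatt
TRX m4: gcaccatggTGTGGACCTTGCcgtatgatt
TRX f1: actcaatggTGTGGTCCATGTaaagtgatt
CDSP32: ctaaaacatTGTGGTCCTTGCgttaaagtg
The reactive cysteine was written TGC in 4 of 4 peroxiredoxins, and the first cysteine of the pair was written TGT in 6 of 6 genes of the other set. The plastid thioredoxins TRX f2 and TRX m3, searched in the same way, had TGT and TGC there. How often either codon is used for other cysteines was not counted.

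On assembly TAIR10.1 these stretches lie at chr3:3673066-3673095 on the plus strand in exon 3 of 7 (2CPA) and at chr5:1920251-1920280 on the plus strand in exon 3 of 7 (2CPB). The PRXQ stretch lies at chr3:9525597-9525626 on the plus strand in exon 2 of 4, and that of PRXIIE at chr3:19640038-19640067 on the plus strand in its single exon. The NTRC stretch lies at chr2:17376734-17376763 on the minus strand in exon 8 of 10. Those of TRX m1 (chr1:917200-917229, minus strand), TRX m2 (chr4:1562798-1562827, minus strand) and TRX m4 (chr3:5189212-5189241, plus strand) lie in exon 2 of 2. The CDSP32 stretch lies at chr1:28548297-28548326 on the minus strand, also in exon 2 of 2. In TRX f1 the capitals lie in exon 2 of 3 and the 30 bases cross an intron, so that they span chr3:588967-589306 on the minus strand.

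How alike the copies are bears on how well an aligner can tell them apart. The coding sequences of 2CPA and 2CPB were 83.5% identical over 800 aligned bases, with a longest identical run of 38 bases. TRX f1 and its sister TRX f2 were 82.2% identical with a longest run of 20 bases, and TRX m1 and TRX m2 were 79.3% identical with a longest run of 31 bases. TRX m4 shared runs of up to 24 bases with TRX m2 and 20 bases with TRX m1. The 58 pairs of different types, aligned in the same way, ran from 54.8% to 65.9% identity with no identical run above 15 bases. The sources used here give no read length, so how many reads these pairs shared is unknown, and the separate values of 2CPA and 2CPB, of TRX m1, TRX m2 and TRX m4 and of TRX f1 and TRX f2 carry that uncertainty.

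All 10 genes were strongly expressed at every exposure, and they kept nearly the same level throughout. Across 0, 20 and 60 s the highest value of a gene exceeded its lowest by a factor between 1.02 (2CPB) and 1.09 (PRXQ) on the deposited scale. The lowest of the 10, NTRC, still stood above 95.1% of the genes listed above 0 FPKM at 60 s. Together the 10 genes summed to 3900 FPKM at 0 s, 3779 FPKM at 20 s and 3812 FPKM at 60 s, which was 0.477%, 0.456% and 0.444% of each column's sum. Column sums were 817000, 829701 and 858218 FPKM. Without genes listed at 0 at any exposure the sums were 815504, 813165 and 838618 FPKM. The shares of the 10 were then 0.478%, 0.465% and 0.455%. The number of reads behind the values is unknown, and fewer cells of a type cannot be told apart from less RNA per cell in whole shoots. The labelled tissue was checked with markers. The 3 leaf markers (RBCS1A, LHCB1.2 and RCA) summed to 22720, 21685 and 22753 FPKM at 0, 20 and 60 s, and 3 floral markers summed to less than 1 FPKM at each exposure, whereas 4 root markers summed to 70.4, 85.2 and 84.7 FPKM, most of it PYK10, and their part in the ratios below was not tested.

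**Figure D1:**
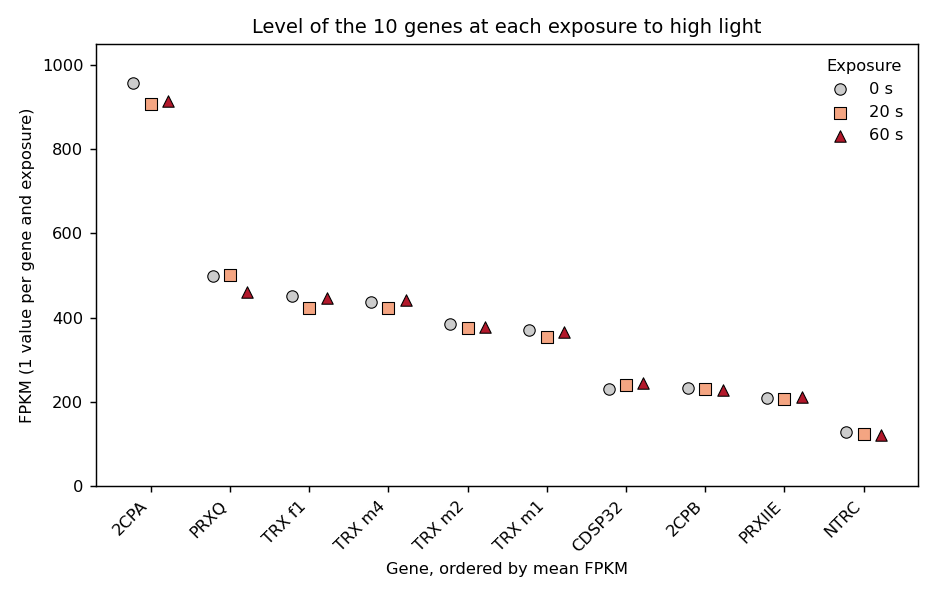
FPKM (y axis, from 0) of each of the 10 genes at 0, 20 and 60 s of high light, with 1 deposited value per point and no error. 2CPA stands apart at 907 to 957 FPKM, and the 3 points of each gene lie close together.

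Among the peroxiredoxins, 2CPA (AT3G11630), one of the copies of the main stromal peroxidase, had 957 FPKM at 0 s, 907 FPKM at 20 s and 915 FPKM at 60 s. Its value was highest at 0 s and, on the deposited scale, lowest at 20 s. With equal column sums (log2 ratio of 60 s over 20 s -0.036) and quantile normalization (-0.10) the 60 s value was the lowest. Its sister 2CPB (AT5G06290) had 233, 230 and 229 FPKM at 0, 20 and 60 s. Since FPKM is scaled by length, the copies can be set side by side: 2CPA exceeded 2CPB by a factor between 3.95 (at 20 s) and 4.11 (at 0 s), and it made up 80.4%, 79.8% and 80.0% of their summed level.

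PRXQ (AT3G26060), a monomeric peroxiredoxin bound to thylakoids, had 499 FPKM at 0 s, 500.2 FPKM at 20 s and 460.4 FPKM at 60 s. Its 0 s and 20 s values were nearly equal and its 60 s value was lower. PRXIIE (AT3G52960), a type II peroxiredoxin of the stroma that is reduced by glutaredoxin, had 208 FPKM at both 0 and 20 s and 212 FPKM at 60 s. The 4 peroxiredoxins summed to 1897, 1845 and 1816 FPKM at 0, 20 and 60 s, and 2CPA supplied 50.4%, 49.2% and 50.4% of that sum.

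NTRC (AT2G41680), a main electron donor of the 2-Cys peroxiredoxins, had 128 FPKM at 0 s, 122 FPKM at 20 s and 121 FPKM at 60 s. It was the lowest of the 10 genes, and 2CPA exceeded it by a factor of 7.47 at 0 s, 7.41 at 20 s and 7.59 at 60 s. The deposited table gives NTRC the same locus as its neighbour AT2G41670, chromosome 2 from 17374083 to 17379055 (4973 bases), while RefSeq gives NTRC 2905 bases. The neighbour was listed at 3.24, 2.88 and 3.46 FPKM at 0, 20 and 60 s. None of the other 9 genes shared bases with another listed gene.

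The m-type thioredoxins are known for supplying 2-Cys peroxiredoxins and enzymes of malate export and photosynthesis. TRX m4 (AT3G15360) had 438, 422 and 443 FPKM at 0, 20 and 60 s, TRX m2 (AT4G03520) had 385, 375 and 377 FPKM, and TRX m1 (AT1G03680) had 369, 353 and 365 FPKM. Each had its lowest value at 20 s on the deposited scale, but TRX m2 had it at 60 s with equal column sums (log2 ratio of 60 s over 20 s -0.043) and quantile normalization (-0.018). TRX m3, the remaining m-type gene, was far lower at 28.3, 28.7 and 30.4 FPKM, so that TRX m1, TRX m2 and TRX m4 made up 30.3%, 31.6% and 35.9% of the m-type sum at 0 s and TRX m3 2.32%.

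TRX f1 (AT3G02730), the main activator of the fructose bisphosphatase of the Calvin cycle, had 451 FPKM at 0 s, 422 FPKM at 20 s and 446 FPKM at 60 s. Its sister TRX f2 had 154, 152 and 166 FPKM, and TRX f1 supplied 74.6% of their sum at 0 s, 73.5% at 20 s and 72.9% at 60 s. CDSP32 (AT1G76080), a drought-induced stromal protein built of thioredoxin domains, had 231, 239 and 245 FPKM at 0, 20 and 60 s. On the deposited scale it was the 1 gene of the 10 whose value was higher at each longer exposure, although its 60 s value was below its 20 s value with every column brought to the same sum (log2 ratio -0.018). In contrast 2CPA, 2CPB, NTRC, TRX m1, TRX m2 and TRX f1 were below their 0 s value at both exposures.

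**Figure D2:**
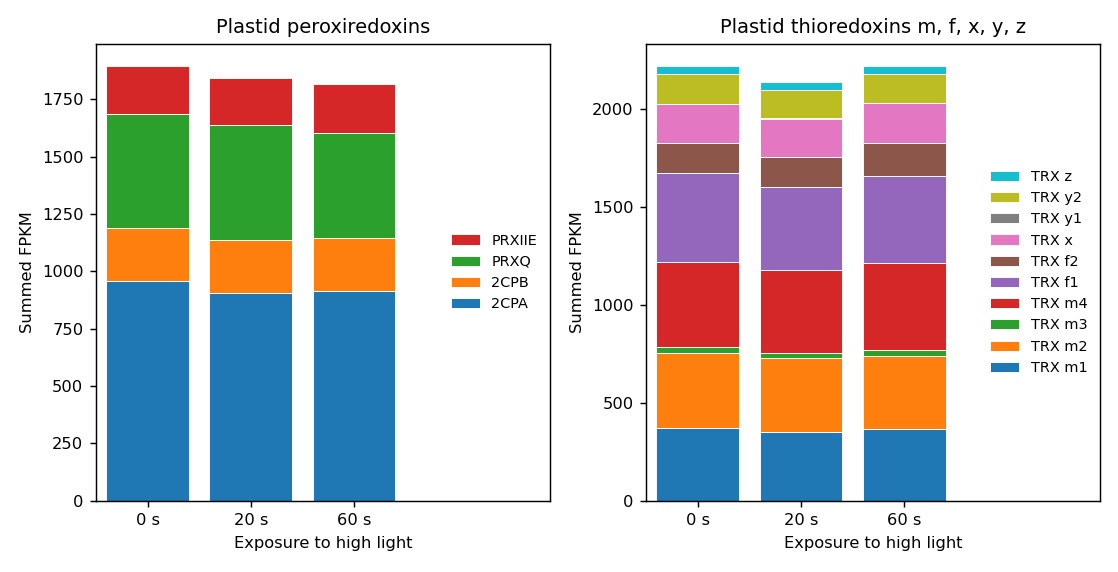
Summed FPKM (y axis, from 0) of the plastid peroxiredoxins (left) and of the m, f, x, y and z thioredoxins (right) at 0, 20 and 60 s, with a colour per gene. 2CPA fills about as much of the left columns as all other peroxiredoxins together, and TRX f1, TRX m4, TRX m2 and TRX m1 fill most of the right ones.

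The order of the levels was 2CPA, PRXQ, TRX f1, TRX m4, TRX m2, TRX m1, CDSP32, 2CPB, PRXIIE and NTRC by mean FPKM. TRX f1 and TRX m4 exchanged places at 20 s, and their ranges over the exposures overlapped (422 to 451 FPKM and 422 to 443 FPKM). CDSP32 and 2CPB overlapped as well (231 to 245 FPKM and 229 to 233 FPKM). The other neighbours in that order had ranges without overlap, and the narrowest gaps were those of TRX m2 (lowest 375 FPKM) above TRX m1 (highest 369 FPKM) and of PRXQ (lowest 460.4 FPKM) above TRX f1 (highest 451 FPKM). In the deposited coordinates (TAIR9, per the submitters' processing notes) 2CPA lies on chromosome 3 from 3672120 to 3674075, 2CPB on chromosome 5 from 1919213 to 1921425, PRXQ on chromosome 3 from 9524733 to 9526374 and TRX f1 on chromosome 3 from 588408 to 589685.

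The comparison of 20 s with 0 s asked whether the shortest exposure altered these transcripts. Of the 10 genes, 0 stood 2-fold apart, against 0.703% of the 13946 genes that averaged 5 FPKM or more. None stood even 1.1-fold apart (0 of 10), against 28.8%. Of the 1354 genes that averaged 100 FPKM or more, as the 10 did, 292 stood 1.1-fold apart. The limit of 1.1-fold was chosen after the values were seen. Ratios are log2((FPKM + 1)/(FPKM + 1)), with 20 s over 0 s. The lowest was that of TRX f1 at -0.096 (422 FPKM at 20 s, against 451 FPKM at 0 s), 1.07-fold lower, and the highest that of CDSP32 at 0.052 (239 FPKM at 20 s, against 231 FPKM at 0 s), 1.04-fold higher. Of all genes, 43.2% lay farther from 0 than TRX f1, and of those that averaged 100 FPKM or more 35.8% did.

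At 20 s, 8 of the 10 genes were lower and 2 higher, against 51.5% lower and 48.5% higher of all genes and 60.3% lower of the 1354 genes that averaged 100 FPKM or more. The median ratio of the 10 was -0.045, beside -0.0045 over all genes and -0.022 over the strongly expressed ones. 2CPA stood at -0.077, NTRC at -0.065, TRX m1 at -0.065, TRX m4 at -0.052 and TRX m2 at -0.039. PRXIIE (-0.0059) and PRXQ (0.0043) were nearest to 0, with 2CPB at -0.018. The PRXQ ratio was negative with equal column sums and with quantile normalization. It stayed positive with median centring (0.0088) and with equal sums once genes listed at 0 were left out (0.0084). The middle 50% of all genes ran from -0.077 to 0.082 and held 9 of the 10, with TRX f1 below it and 2CPA at its edge.

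The comparison of 60 s with 0 s asked the same of the longer exposure. Again 0 of the 10 genes stood 2-fold apart (0.724% of all genes) and 0 stood 1.1-fold apart (33.1%). Of the 1354 genes that averaged 100 FPKM or more, 395 stood 1.1-fold apart. PRXQ had the lowest ratio, at -0.11 (460.4 FPKM at 60 s, against 499 FPKM at 0 s), 1.08-fold lower, and NTRC followed at -0.087 (121 FPKM at 60 s, against 128 FPKM at 0 s). CDSP32 was again the highest, at 0.083 (245 FPKM at 60 s, against 231 FPKM at 0 s), 1.06-fold higher. Of all genes, 40.7% lay farther from 0 than PRXQ, and of those that averaged 100 FPKM or more 35.8% did. The 1.1-fold limit depends on the scale. With every column brought to the same sum PRXQ stood at -0.19 and NTRC at -0.16 and both passed it. With genes listed at 0 left out first, PRXQ stood at -0.16 and passed it, and NTRC at -0.13 did not. PRXQ also passed it with quantile normalization (-0.15) but not with median centring (-0.13).

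At 60 s, 7 of the 10 genes were lower and 3 higher than at 0 s, against 45.4% and 54.6% of all genes and 53.8% lower of those that averaged 100 FPKM or more. The higher ones were CDSP32, PRXIIE (0.023) and TRX m4 (0.015). The median of the 10 was -0.022, beside 0.015 over all genes and -0.0090 over those of at least 100 FPKM. The split depends on the scale: with every column brought to the same sum, CDSP32 was the 1 gene of the 10 that was higher at 60 s. The middle 50% of all genes, from -0.072 to 0.11, held 8 of the 10, with PRXQ and NTRC below it. The 20 s and 60 s comparisons share the 0 s value, so a gene's ratios in them are not independent.

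**Figure D3:**
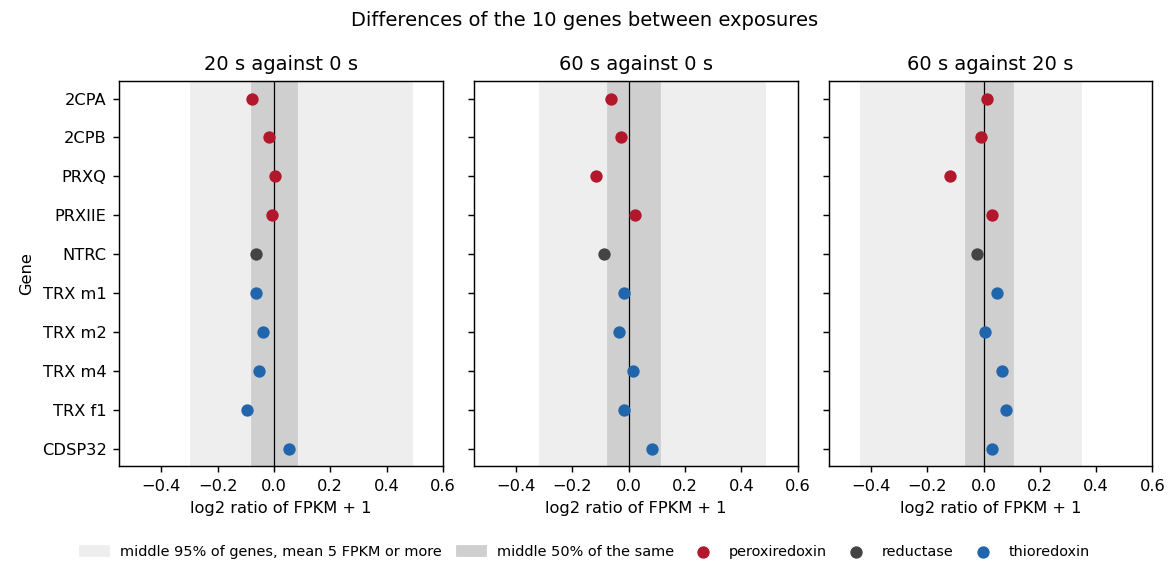
Log2 ratios of FPKM + 1 (x axis) of the 10 genes (rows) in the 3 comparisons, over bands for the middle 95% (light) and middle 50% (dark) of the 13946 genes that averaged 5 FPKM or more. All 10 points lie in the light band in each panel, and 9, 8 and 9 of them lie in the dark one.

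Values at 60 s were next set beside those at 20 s. Of the 10 genes, 0 stood 2-fold apart, against 0.38% of all genes, and 0 stood 1.5-fold apart, against 1.79%. At the 1.1-fold limit 0 did, against 30.8%. Of the 1354 genes that averaged 100 FPKM or more, 431 stood 1.1-fold apart. PRXQ was lowest at -0.12 (460.4 FPKM at 60 s, against 500.2 FPKM at 20 s), 1.09-fold lower. Of all genes 36.7% lay farther from 0, and of those that averaged 100 FPKM or more 37.5% did. With equal column sums PRXQ stood at -0.17 and passed the 1.1-fold limit, as it did with quantile normalization and median centring (both -0.14). TRX f1 was highest at 0.079 (446 FPKM at 60 s, against 422 FPKM at 20 s), 1.06-fold higher. PRXQ alone of the 10 lay outside the middle 50% of all genes, which ran from -0.062 to 0.10.

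By role, the 5 thioredoxins were all higher at 60 s than at 20 s, with TRX m4 at 0.067, TRX m1 at 0.049, CDSP32 at 0.031 and TRX m2 at 0.0053 beside TRX f1, whereas NTRC (-0.022), 2CPB (-0.0079) and PRXQ were lower. PRXIIE (0.029) and 2CPA (0.013) were higher. That gives 7 higher and 3 lower, against 57.6% and 42.4% of all genes. The split of the 10 turned to 3 higher and 7 lower with every column brought to the same sum and to 4 higher with quantile normalization. Only TRX f1, TRX m1 and TRX m4 were higher under every scaling tried, TRX m1 by as little as 7.1e-05. The median of the 10 was 0.021, beside 0.023 over all genes. It turned negative with median centring (-0.0020), with quantile normalization (-0.0099) and with equal column sums (-0.028, or -0.024 without genes listed at 0).

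PRXQ had the widest range of the 10 on the log2 scale, 0.12. The genes whose ratios at 20 s and 60 s against 0 s lay nearest to its own were AT4G02930, annotated in RefSeq as an elongation factor Tu family protein, AT2G34250, a SecY family protein, and AT1G15810, of the S15 family. The larger of their 2 differences from PRXQ was 0.0029, 0.0037 and 0.0051. Likeness over 3 exposures is weak, since 731 genes lay within 0.05 of PRXQ on both ratios.

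The wider pathway was followed in 5 lists of 52 genes chosen by known role, of which 46 averaged 5 FPKM or more. The splits of these lists were also counted with each scaling, a step added after the values were seen. With equal column sums the split of all genes itself changed, among 14617 genes. At 20 s against 0 s it was 6088 higher and 8522 lower. At 60 s it was 5142 higher and 9468 lower against 0 s, and 6207 higher and 8405 lower against 20 s. With genes listed at 0 left out first it was 7275 higher and 7355 lower at 20 s against 0 s. At 60 s it was then 6295 and 8335 against 0 s, and 6405 and 8225 against 20 s. On the deposited scale, 0 of the 46 list genes stood 2-fold apart in any comparison. Of all genes, 0.703% (20 s against 0 s), 0.724% (60 s against 0 s) and 0.38% (60 s against 20 s) did. The widest difference was that of ACHT5 (AT5G61440), an atypical Cys-His-rich thioredoxin of the chloroplast, with 18.3 FPKM at 0 s, 35.4 FPKM at 20 s and 28.5 FPKM at 60 s. It was 1.88-fold higher at 20 s and 1.53-fold higher at 60 s than at 0 s. It was the only gene of the 5 lists to stand 1.5-fold apart in either comparison with 0 s, where 2.29% and 2.11% of all genes did.

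In the list of other plastid thioredoxins 12 of 14 genes passed the minimum level, TRX y1 (3.27, 3.77 and 2.66 FPKM) being too low and ACHT3 being listed at 0 throughout. At 20 s 5 were higher and 7 lower than at 0 s (median -0.011), with ACHT2 lowest at -0.15 (82.3 FPKM at 20 s, against 91.2 FPKM at 0 s). At 60 s 9 were higher and 3 lower than at 0 s (median 0.079), with ACHT2 again lowest at -0.094. Between 60 s and 20 s 11 were higher and 1, ACHT5 at -0.30, was lower (median 0.057), beside 57.6% of all genes higher. With equal column sums the list had 6 higher and 6 lower at 60 s against 0 s and 8 higher and 4 lower at 60 s against 20 s. At 20 s against 0 s it had 3 higher and 9 lower. With genes listed at 0 left out first it had 5 higher and 7 lower at 20 s against 0 s. At 60 s it then had 7 higher and 5 lower against 0 s, and 8 and 4 against 20 s. On the deposited scale, ACHT4, a relative of ACHT5 linked to starch synthesis, was highest at 60 s against 20 s. It stood at 0.30 (130 FPKM at 60 s, against 106 FPKM at 20 s). Of the classical types beside the members, TRX x stood at 199, 198 and 204 FPKM, TRX y2 at 152, 143 and 145 FPKM and TRX z, a subunit associated with the plastid RNA polymerase, at 42.0, 42.4 and 42.8 FPKM at 0, 20 and 60 s.

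Electron supply to the plastid thioredoxins was represented by 7 genes, all above the minimum level. FTRB, the catalytic subunit of ferredoxin-thioredoxin reductase, had 242, 217 and 225 FPKM at 0, 20 and 60 s. The variable subunit gene FTRA1 had 52.0, 45.1 and 54.1 FPKM, the lowest ratio of the list at 20 s against 0 s (-0.20) and the highest at 60 s against 20 s (0.26). FD2, the main leaf ferredoxin, had 1819, 1948 and 2064 FPKM and was the highest of the list in both comparisons with 0 s (0.099 and 0.18). At 20 s 2 genes were higher and 5 lower than at 0 s (median -0.078), at 60 s 4 were higher and 3 lower (median 0.0070), and between 60 s and 20 s 7 of 7 had the higher value at 60 s (median 0.062), where FTRB had the lowest ratio at 0.053 and 57.6% of all genes were higher. Equal column sums left 7 of 7 higher in that comparison (median 0.013), and quantile normalization left 5 higher and 1 lower. At 60 s against 0 s equal sums gave 2 higher and 5 lower, or 3 and 4 with genes listed at 0 left out first.

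Partners and repair enzymes of the peroxidases, 7 genes, spread more widely than the 10. GPX1 (AT2G25080), a plastid glutathione peroxidase-like enzyme that uses thioredoxin, had 381 FPKM at 0 s, 336 FPKM at 20 s and 443 FPKM at 60 s. It was lowest of the list at 20 s against 0 s (-0.18) and highest at 60 s against 0 s (0.21) and against 20 s (0.40). GPX7 had 8.23, 10.3 and 9.02 FPKM, highest at 20 s against 0 s (0.30) and lowest at 60 s against 20 s (-0.18). SRX, the sulfiredoxin that restores over-oxidized 2-Cys peroxiredoxins, had 65.8, 64.9 and 71.3 FPKM, and CYP20-3, a cyclophilin that binds 2CPA, had 907, 888 and 849 FPKM, the lowest ratio of the list at 60 s against 0 s (-0.095). The list had 3 higher and 4 lower at 20 s against 0 s (median -0.018), 5 and 2 at 60 s against 0 s (median 0.070) and 4 and 3 at 60 s against 20 s (median 0.032). Equal column sums gave 3 higher and 4 lower in each of the 3 comparisons. With genes listed at 0 left out first, 60 s against 0 s had 5 higher and 2 lower, and the others were the same.

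Plastid enzymes under thioredoxin control, 10 genes, were lower in 7 and higher in 3 at 20 s against 0 s (median -0.082), lower in 6 and higher in 4 at 60 s against 0 s (median -0.016), and higher in 8 and lower in 2 at 60 s against 20 s (median 0.068). SBPASE, the sedoheptulose bisphosphatase of the Calvin cycle, had 825, 742 and 751 FPKM at 0, 20 and 60 s and the lowest ratio against 0 s at both exposures (-0.15 and -0.14). G6PD1, a glucose-6-phosphate dehydrogenase that thioredoxin switches off, had 97.6, 107 and 114 FPKM and the highest ratios (0.14 and 0.23). At 60 s against 20 s RCA, the Rubisco activase, was highest at 0.13 and CP12-2, a linker of Calvin cycle enzymes, lowest at -0.031. Equal column sums gave 1 higher and 9 lower at 20 s against 0 s, and 2 higher and 8 lower at 60 s against 0 s. At 60 s against 20 s they gave 6 higher and 4 lower, where quantile normalization gave 4 and 4. With genes listed at 0 left out first, the splits were 3 higher and 7 lower, 4 and 6, and 7 and 3 in the same order.

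Outside the plastid 10 of 14 genes passed the minimum level, and the 4 that did not were PRXIIA, PRXIIC, PRXIID and PER1. At 20 s 7 were higher and 3 lower than at 0 s (median 0.075), at 60 s 5 were higher and 5 lower than at 0 s (median 0.0054), and 2 were higher and 8 lower at 60 s than at 20 s (median -0.12). With equal column sums 2 were higher and 8 lower at 60 s against 0 s, or 3 and 7 with genes listed at 0 left out first. The other splits were the same. TRX h5 (AT1G45145), a cytosolic thioredoxin that reduces the salicylic acid regulator NPR1, had 46.0, 67.5 and 52.6 FPKM at 0, 20 and 60 s. Its ratio was the highest of the list against 0 s, at 0.54 at 20 s and 0.19 at 60 s, and the lowest at 60 s against 20 s (-0.35). TRX h3, the most abundant cytosolic thioredoxin of the list, had 781, 746 and 860 FPKM and the highest ratio at 60 s against 20 s (0.21). NTRB was lowest at 20 s against 0 s (-0.072) and TRX h1 at 60 s against 0 s (-0.17), while PRXIIF, the mitochondrial peroxiredoxin, had 90.9, 101 and 88.9 FPKM.

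**Figure D4:**
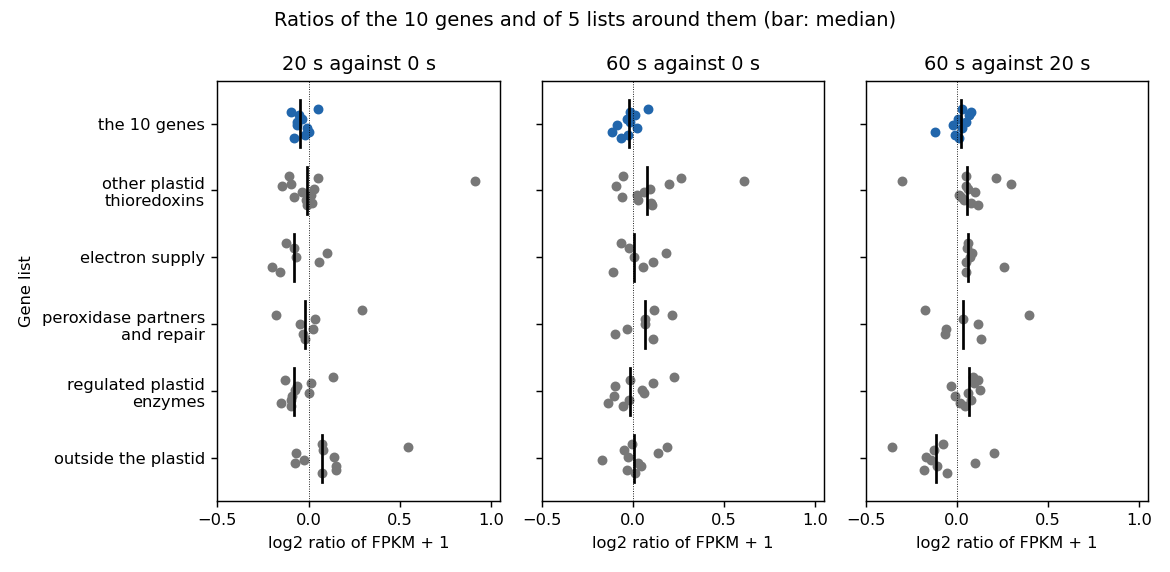
Log2 ratios of FPKM + 1 (x axis) for the 10 genes and the genes of 5 pathway lists that averaged 5 FPKM or more (rows), in the 3 comparisons, each point a gene and each bar the list's median. ACHT5 is the far point of the other plastid thioredoxins, at 0.91 at 20 s and 0.61 at 60 s against 0 s.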

How the data were processed

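RNA-seq of 9 pools of shoots, 3 per exposure, was processed by the authors. They deposited FPKM values as 1 value per gene and exposure, and the submitters' processing notes name TopHat, Bowtie and Cufflinks and the build TAIR9. The sources used here give no versions, strand handling, read length or way of combining pools. Such an estimator divides reads between copies, so values of close relatives are uncertain. The 3 columns were matched to exposures by name. With no value per pool, no SD, interval or test was possible, and the depth is unknown. Ratios are log2 of FPKM + 1 (pseudocount 1), read beside the 13946 genes that averaged 5 FPKM or more. Starts were shifted to count from 1. The ratio step was tested on simulated data. The 10 members and the 5 lists were chosen with earlier results of these data known. Genes named are all members, the highest and lowest of each list per comparison, any past 2-fold, and the 3 nearest to the widest-ranging member. TRX f2, TRX m3, TRX x, TRX y1, TRX y2, TRX z, ACHT3, FNR1, FNR2, SRX, PRXIIA, PRXIIC, PRXIID, PER1 and PRXIIF were named outside that rule, after their values were seen. Sequences and gene models came from RefSeq, assembly TAIR10.1, which matched 10 of 10 members. Coding sequences were aligned globally with Biopython 1.88. The motifs were searched in translations of these coding sequences, and no separate protein sequences were used. Python 3.11.15, pandas 2.3.3, numpy 2.4.6 and matplotlib 3.10.9 were used.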

Additional observations from a re-analysis of the deposited data

How the results depend on the processing

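No paired analysis was possible because the table has 1 value per exposure, and for the same reason no pool could be left out. Under 9 alternatives the log2 ratios of single members gave 267 values. Of these, 21 had the other sign and 12 moved by 0.05 or more, a limit that is not an error. Changing the minimum level or the genes kept cannot change a member's ratio, so those values were fixed in advance. A change of pseudocount cannot turn the sign of a ratio, so those signs were fixed too. Only the scalings below could turn a sign, and the 21 are therefore not to be read as a share of 267. The turned signs were 7 of 30 with equal column sums, and 6 of 30 with genes listed at 0 left out first. Quantile normalization turned 5 of 30 and median centring 3 of 30. None of the 10 members reached a ratio of 5 to 4 in any comparison under those alternatives. With columns scaled to an equal sum, the median of the members at 60 s against 0 s was -0.092, and the number of members higher was 1 for 20 s over 0 s, 1 for 60 s over 0 s and 3 for 60 s over 20 s. Leaving out genes listed at 0 before that scaling gave 2 for 20 s over 0 s, 1 for 60 s over 0 s and 3 for 60 s over 20 s. Quantile normalization gave 1 for 20 s over 0 s and 4 for 60 s over 20 s. For all genes, the numbers at least 2-fold apart were 98 (20 s against 0 s), 101 (60 s against 0 s) and 53 (60 s against 20 s). In the same order they were 55, 53 and 21 with a mean of at least 20 FPKM, and 55, 61 and 19 among protein-coding genes above 0 that overlap no other gene, where NTRC drops out. With no minimum level they were 158 for 20 s over 0 s and 98 for 60 s over 20 s. A 1.5-fold limit gave 319, 294 and 249, a limit at a ratio of 5 to 4 gave 990, 1083 and 983, and the 1.1-fold limit, added after seeing the data, gave 4022, 4610 and 4301. Equal column sums move every ratio of a comparison by nearly the same amount. At 60 s against 0 s they took 2CPA from -0.064 to -0.135 and CDSP32 from 0.083 to 0.012. The 10 values moved by that scaling were those of the 10 members in this comparison, so they are 1 shared shift. What caused the other shifts beyond the number of genes kept was not tested.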
